A study of Mus musculus with 6 samples.

Results

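Chemokine ligands are small secreted proteins that steer leukocyte migration, and 10 of their genes are described here, namely Ccl3, Ccl4, Ccl5, Ccl6, Ccl8, Ccl9, Ccl25, Cxcl2, Cxcl10 and Cxcl16. They were picked by symbol from the 49315 genes of the count table with their counts in skin and lymph node already known. The skin against lymph node values of these 10 genes are therefore a description, and no p-value is given for them. By symbol the whole ligand family had 49 genes in the table, so 39 further genes are also accounted for. The cells profiled, in bulk, were regulatory T cells (Tregs), which carry the transcription factor Foxp3 and dampen immunity. Skin Tregs and Tregs of the skin-draining lymph nodes (SDLNs) came from 9-day-old Foxp3-GFP mice on a C57BL/6J background, in which Foxp3-expressing cells fluoresce green. Each of the 3 skin and 3 SDLN libraries held the pooled cells of 3 biological replicates, enriched on CD45 beads and sorted as live CD45+ CD4+ Foxp3-EGFP+ cells. Nothing used here says whether the pools of a tissue came from separate litters or days, so p-values measure only the spread between these libraries, which may be technical. The libraries of a tissue are lettered A, B and C, and where 3 values are listed for a tissue they stand in that order.

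Chemokines bind G protein-coupled receptors on the cells they attract, and the family is named for the spacing of the first conserved cysteines in the mature protein. In the CC ligands (Ccl genes) these cysteines are adjacent, and in the CXC ligands (Cxcl genes) another residue lies between them. Tregs are known both for following chemokines into tissues, through receptors such as CCR4 and CCR8, and for making some of their own, such as CCL3 and CCL4 after activation. Macrophages, dendritic cells and mast cells in skin are rich sources of many of the same ligands.

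The coding sequence around these cysteines is shown for 9 of the genes, because their spacing defines the CC and the CXC group. The stretches are 5′ to 3′ from the GENCODE M21 transcripts (GRCm38), with the cysteine codons in capitals.
Ccl4: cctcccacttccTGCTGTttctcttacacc
Ccl5: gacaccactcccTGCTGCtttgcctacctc
Ccl6: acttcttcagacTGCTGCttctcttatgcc
Ccl8: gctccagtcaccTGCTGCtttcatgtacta
Ccl9: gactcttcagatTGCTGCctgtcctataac
Ccl25: gcctttgaagacTGCTGCctgggttaccag
Cxcl2: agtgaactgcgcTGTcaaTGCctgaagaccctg
Cxcl10: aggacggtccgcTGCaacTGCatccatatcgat
Cxcl16: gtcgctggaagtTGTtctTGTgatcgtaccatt
Each pair was looked for at the spacing its gene name implies. This is 0 codons between the cysteine codons for the 6 Ccl genes shown and 1 for the 3 Cxcl genes. The spacing is therefore an illustration and not a result. Ccl4 has a coding length of 279 bases, and Cxcl16, whose product also exists as a membrane-bound form, has 741.

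The skin libraries held 3748669 to 11741784 counts each and the SDLN libraries 47243498 to 116158706. A count of 3 or fewer is called the floor here. It corresponds to 0.255 to 0.800 counts-per-million of the library total (CPM) in skin and 0.0258 to 0.0635 CPM in SDLN, and it covers counting error only. Between 2911 and 5902 genes were over the floor in the skin libraries, against 17584 to 19318 in the SDLN libraries. Of genes over the floor in at least 1 skin library, 20.2% were over it in all 3, whereas in SDLN this share was 73.5%. The sorted population was checked against its defining markers. Foxp3 had 0, 330 and 1 counts and Cd4 had 0, 1861 and 2 counts across the skin libraries, so that both were at the floor in skin libraries A and C. Il2ra, Ctla4, Cd3g and Trac were over the floor in every library, whereas Cd3e had 0, 1757 and 2646 counts across the skin libraries.

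The ligands as a group made up more of the skin libraries than of the SDLN libraries. The 10 genes summed to 1669, 499 and 869 CPM across the skin libraries and to 72.7, 64.6 and 56.8 CPM across the SDLN libraries, a mean of 1012 ± 598 against 64.7 ± 7.96 CPM (SD, n = 3 each). Every skin library lay above every SDLN library. In bulk samples, more cells of a type and more RNA per cell cannot be told apart. Of the 10 genes, 8 were over the floor in at least 1 skin library and 4 of them in all 3 (Ccl3, Ccl4, Ccl6 and Ccl8). In SDLN, 9 were over the floor in at least 1 library and 6 in all 3.

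**Figure D1:**
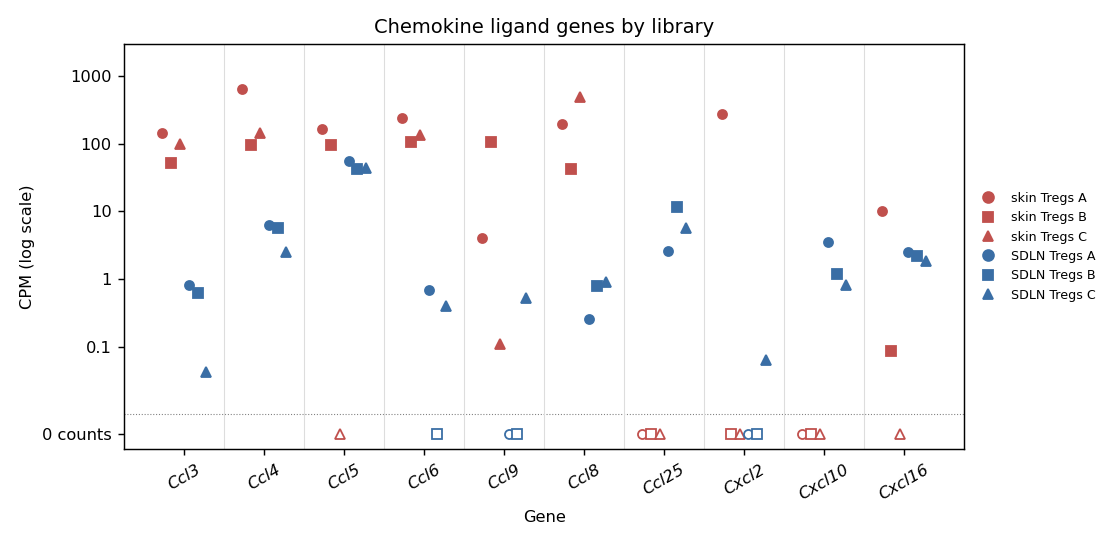
CPM of the 10 ligand genes on a log axis, with 1 point per library (red for skin, blue for SDLN, and circles, squares and triangles for libraries A, B and C). Open symbols below the dotted line are libraries with 0 counts. Ccl3, Ccl4, Ccl6 and Ccl8 lie higher in all skin libraries, Ccl25 and Cxcl10 have 0 counts in all skin libraries, and the groups overlap for the other 4 genes.

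A marker list of myeloid cells also differed between the tissues. Its 19 genes, which include Lyz2, Csf1r, C1qa, Mrc1 and the MHC class II genes, summed to 57430, 36470 and 33340 CPM across the skin libraries and to between 435 and 774.5 CPM in SDLN. Of the 17 tested, 14 passed the test toward skin and 1 toward SDLN, beside 1.04% and 45.3% of all 13572 genes tested (edgeR, Benjamini-Hochberg adjustment). Cd74, H2-Aa and H2-Ab1 carried 87.3%, 83.1% and 86.7% of the sum across the skin libraries and 79.6 to 91.2% in SDLN. The other 16 genes summed to 7296, 6155 and 4446 CPM across the skin libraries and to 53.0 to 88.8 CPM in SDLN, and 12, 15 and 10 of them were over the floor in the skin libraries. Csf1r, Mrc1 and C1qb were over it in all 3. Itgam was at 0 in all 3, Cd14, Itgax and Aif1 were at 0 in A and C, and in C Cd163 was at 0 and Adgre1 had 1 count. A list of 12 genes that respond to tissue digestion (Fos, Jun, Hspa1a and others) summed to 31580, 15260 and 8132 CPM in skin and to between 1218 and 1427 CPM in SDLN, with 8 of 12 called higher in skin, beside the same 1.04% of all genes. Egr1, Ier2, Ier3 and Zfp36, also of this list, overlapped between the tissues. Egr1 was at 137, 504.4 and 2.77 CPM across the skin libraries and at 76.3 to 209 CPM in SDLN. The Treg and T cell list of 10 genes summed to between 5358 and 7951 CPM in skin and between 7512 and 8665 CPM in SDLN. Foxp3, Cd4, Cd3d, Cd3e, Cd3g and Trac were each lower in every skin library than in every SDLN library. Ctla4 was higher in every skin library, and Il2ra, Ikzf2 and Tnfrsf18 overlapped. Of the 10, 1 was called toward skin and 0 toward SDLN, beside the same 1.04% and 45.3% of all genes. The part of myeloid RNA and of digestion in the ligand values was not tested. Among the skin libraries, A was the highest for the ligands and for the myeloid and digestion lists. Library C was above B for the ligands but below B for both of these lists.

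**Figure D2:**
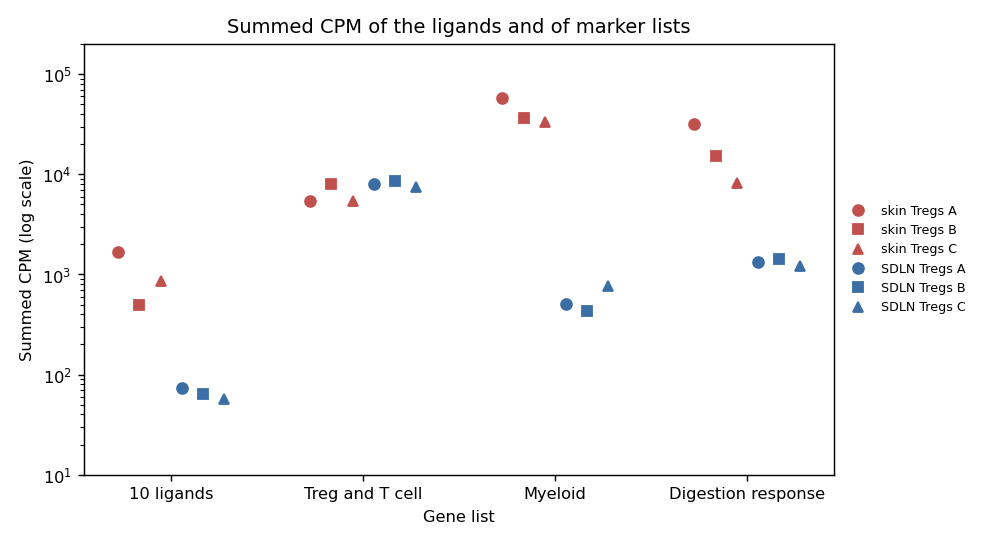
Summed CPM on a log axis of the 10 ligand genes and of the Treg and T cell, myeloid and digestion response lists, with 1 point per library (red for skin, blue for SDLN, and circles, squares and triangles for A, B and C). The ligand, myeloid and digestion sums are higher in all skin libraries, whereas the Treg and T cell sums overlap.

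Marker lists of other cell types were summed as well. The mast cell and granulocyte list summed to 225.7 CPM in skin library A and to 0 in B and C, against 11.6 to 27.4 CPM in SDLN. Cma1 made up 216 CPM of the sum in skin library A, and Kit, Tpsb2 and Ms4a2 were at 0 in all skin libraries. The CD8, NK and cytotoxic list summed to between 1112 and 1403 CPM in skin and 266 and 295 CPM in SDLN. It was carried mainly by Gzmb and Nkg7, and Klrd1 added 256 CPM in skin library A and had 0 counts in B and C. Cd8a, Cd8b1, Prf1, Gzma and Ncr1 were at 0 in all skin libraries. Of the 5 gamma delta T cell genes, Trdc was seen in skin library C at 117 CPM and the other 4 were at 0 in all skin libraries, whereas the list summed to 21.9 to 29.5 CPM in SDLN and 4 of its 5 genes were called higher there, beside 45.3% of all genes tested. B cell genes summed to at most 2.66 CPM in skin and to 54.9 to 89.8 CPM in SDLN. The keratinocyte and Langerhans list summed to 0, 50.7 and 0.221 CPM across the skin libraries, against 32.5 to 40.4 CPM in SDLN. The value in skin library B was all Epcam, and Krt14, Krt5 and Cd207 were at 0 in all libraries. The fibroblast list reached 90.6 CPM in skin library B and the endothelial list 25.9 CPM in skin library A, against at most 7.56 and 173 CPM in SDLN. The endothelial sum was Kdr alone in skin library A and nearly all Pecam1 in SDLN, at 138.9 to 172.7 CPM.

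Ccl3 and Ccl4 encode inflammatory chemokines of activated leukocytes, and CCL3 binds CCR1. The genes are neighbours on chromosome 11, 13.2 kb apart and on opposite strands. Ccl3 (ENSMUSG00000000982, chr11:83647844-83649355, minus strand, GRCm38) was at 142.2, 52.3 and 98.5 CPM across the skin libraries and at 0.801, 0.618 and 0.0423 CPM across the SDLN libraries. The SDLN values rested on 93, 45 and 2 counts, the last at the floor. All skin libraries were above all SDLN libraries, with means of 97.7 ± 45.0 and 0.487 ± 0.396 CPM (SD, n = 3 each) and a fitted log2 fold change, skin over SDLN, of 7.59 (SE 1.85), or 6.94 without SDLN library C.

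Ccl4 (ENSMUSG00000018930, chr11:83662584-83664683, plus strand) was at 638, 95.7 and 143.9 CPM across the skin libraries and at 6.27, 5.77 and 2.48 CPM across the SDLN libraries. Skin library A stood well above the other skin libraries, and the groups did not overlap. Mean levels were 293 ± 300.2 and 4.84 ± 2.06 CPM (SD, n = 3 each) and the fitted log2 fold change was 5.66 (SE 1.28), or 4.64 without skin library A.

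The balance between these neighbours differed between the tissues. For each Ccl3 count there were 4.49, 1.83 and 1.46 Ccl4 counts across the skin libraries, with 95% exact binomial intervals of 4.08 to 4.94, 1.66 to 2.02 and 1.34 to 1.59. In SDLN libraries A and B there were 7.83 (6.30 to 9.82) and 9.33 (6.85 to 13.0), and in SDLN library C 58.5 (15.8 to 489) on 2 Ccl3 counts. All 3 skin ratios were thus lower than the SDLN ratios, and within skin the ratio in library A lay outside the intervals of B and C. These intervals cover counting error only.

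Ccl6 and Ccl9 encode ligands of CCR1 that are made mainly by myeloid cells. They lie 9.25 kb apart in the same part of chromosome 11, and Ccl5, Ccl9, Ccl6, Ccl3 and Ccl4 together span 138.9 kb (chr11:83525778-83664683). Ccl6 (ENSMUSG00000018927, chr11:83587882-83593087, minus strand) was at 236.9, 106.5 and 134.4 CPM across the skin libraries. In SDLN libraries A, B and C it was at 0.697, 0 and 0.402 CPM, on 81, 0 and 19 counts. The groups did not overlap, with means of 159 ± 68.7 and 0.366 ± 0.350 CPM (SD, n = 3 each) and a log2 fold change of 8.61 (SE 2.59), or 9.53 without SDLN library A. Ccl6 was the most even of the 10 ligands across the skin libraries by its SD relative to its mean.

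Ccl9 (ENSMUSG00000019122, chr11:83572919-83578636, minus strand) behaved differently from its neighbour. It was at 4.001, 106 and 0.111 CPM across the skin libraries, which are 15, 1247 and 1 counts, and its SDLN counts were 0, 0 and 25. The skin level thus came from library B, and skin library C, at the floor, fell below SDLN library C at 0.529 CPM. Its log2 fold change came to 7.66 with an SE of 3.75, and it was 2.98 (SE 2.57) when skin library B was left out and 13.60 (SE 4.81) when SDLN library C was.

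Ccl8 encodes a ligand of CCR8 in the mouse, and CCR8 is a receptor carried by many skin Tregs. Ccl8 (ENSMUSG00000009185, chr11:82115185-82116799, plus strand) lies in another group of Ccl genes on chromosome 11, next to Ccl12. It was at 196.3, 43.0 and 492 CPM across the skin libraries and at 0.258, 0.797 and 0.910 CPM across the SDLN libraries. Skin library C was the highest and B the lowest, and all were above SDLN. Mean levels were 244 ± 228 and 0.655 ± 0.348 CPM (SD, n = 3 each) and the fitted log2 fold change was 8.66 (SE 1.78), or 7.02 without skin library C. Ccl8 was the leading ligand of skin library C, with 36.6% of all ligand counts there (95% exact binomial interval 35.7 to 37.4%).

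Ccl5 encodes a ligand of CCR1 and CCR3 and is a classical product of memory and cytotoxic T cells. It was the only one of the 10 genes with a mean over 10 CPM in SDLN Tregs. Ccl5 (ENSMUSG00000035042, chr11:83525778-83530518, minus strand) was at 56.1, 42.4 and 44.0 CPM across the SDLN libraries. In skin libraries A and B it was at 163 and 94.96 CPM, and in skin library C it had 0 counts, which allows up to 0.332 CPM. The skin libraries therefore lay on both sides of SDLN, with means of 86.1 ± 82.0 and 47.5 ± 7.50 CPM (SD, n = 3 each) and a log2 fold change of 0.57 (SE 2.22), whose direction turned without skin library A (-0.062).

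Ccl25 and Cxcl10 had 0 counts in all skin libraries. CCL25 attracts CCR9+ cells and is best known from thymus and small intestine, and CXCL10 is an interferon-induced ligand of CXCR3. Ccl25 (ENSMUSG00000023235, chr8:4325210-4360020, plus strand) was at 2.60, 11.7 and 5.69 CPM across the SDLN libraries, and the skin level was at least 14.4-fold lower, taking 3 counts per skin library as its limit. That limit was 8.96-fold without SDLN library B and 22.7-fold without skin library A. Cxcl10 (ENSMUSG00000034855, chr5:92346638-92348889, minus strand) was at 3.47, 1.17 and 0.804 CPM in SDLN, and the skin level was at least 3.92-fold lower on the same basis, with a limit of 2.13-fold without SDLN library A and 6.17-fold without skin library A. Such gaps were frequent, since of all 2064 genes at a mean of 3 to 10 CPM in SDLN 65.2% were at the floor in every skin library, and of the 1963 genes at 1 to 3 CPM 73.5% were.

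Exons of Ccl25 overlap those of Elavl1 on the opposite strand by 204 bases, and without a stated strand setting reads there cannot be assigned to either gene. Elavl1 was at 231, 171 and 220 CPM across the SDLN libraries, so that the Ccl25 values are uncertain. In skin library B Elavl1 had 1494 counts beside 0 of Ccl25. Cxcl10 overlaps Art3 by 133 bases, and Art3 was at 2.12, 2.13 and 0.741 CPM in SDLN.

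Cxcl2 encodes a neutrophil-attracting ligand of CXCR2. Cxcl2 (ENSMUSG00000058427, chr5:90903871-90905938, plus strand) had 1043 counts (278 CPM) in skin library A and 0 in skin libraries B and C. Its SDLN counts were 0, 0 and 3, all at the floor. The gene was thus seen in a single library, it did not pass the filter on low counts, and no fold is given. Of its 50-base stretches, 5.84% also occur in Cxcl3, which had 0 counts in every skin library.

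Cxcl16 encodes the ligand of CXCR6 and is made by myeloid and other antigen-presenting cells. Cxcl16 (ENSMUSG00000018920, chr11:70453983-70459984, minus strand) was at 10.1, 0.0852 and 0 CPM across the skin libraries, on 38, 1 and 0 counts. In SDLN libraries A, B and C it was at 2.497, 2.17 and 1.82 CPM. The skin level came from library A alone, which lay above SDLN, whereas B and C were at the floor. Its log2 fold change came to 0.092 (SE 1.61), and it was -5.47 (SE 0.876) without skin library A. Cxcl16 overlaps Zmynd15 by 552 bases on the opposite strand, and Zmynd15 had at most 32 counts in any library.

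Per kb of exon, which allows levels of different genes to be compared, Ccl5 led in SDLN Tregs at 49.5 ± 7.81 CPM per kb and Ccl4 followed at 7.33 ± 3.12 (SD, n = 3 each). Neither overlapped the gene after it in the order. The others followed from Ccl8, Ccl25, Cxcl10, Cxcl16, Ccl3, Ccl6 and Ccl9 to Cxcl2, between 1.28 and 0.0102 CPM per kb, and each overlapped the next. In skin Tregs the order of the means was Ccl8 at 477, Ccl4 at 443, Ccl3 at 127.5, Ccl5 at 89.7, Ccl6 at 88.7, Cxcl2 at 44.9, Ccl9 at 12.1 and Cxcl16 at 1.13 CPM per kb, ahead of Ccl25 and Cxcl10 at 0. Every neighbouring pair in the skin order overlapped between libraries, so that this order is not resolved by 3 libraries.

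The make-up of all ligand counts differed as well. Ccl5 held 68.3%, 58.3% and 68.0% of the ligand counts across the SDLN libraries (95% exact binomial intervals 67.3 to 69.2%, 57.0 to 59.7% and 66.3 to 69.7%). In skin no gene led everywhere. The first in skin library A was Ccl4 with 23.8% (22.9 to 24.6%), in B Ccl2 with 20.6% (19.9 to 21.3%) and in C Ccl8. The 10 genes held 62.2%, 46.0% and 64.6% of all ligand counts across the skin libraries and 87.7 to 88.9% in SDLN.

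**Figure D3:**
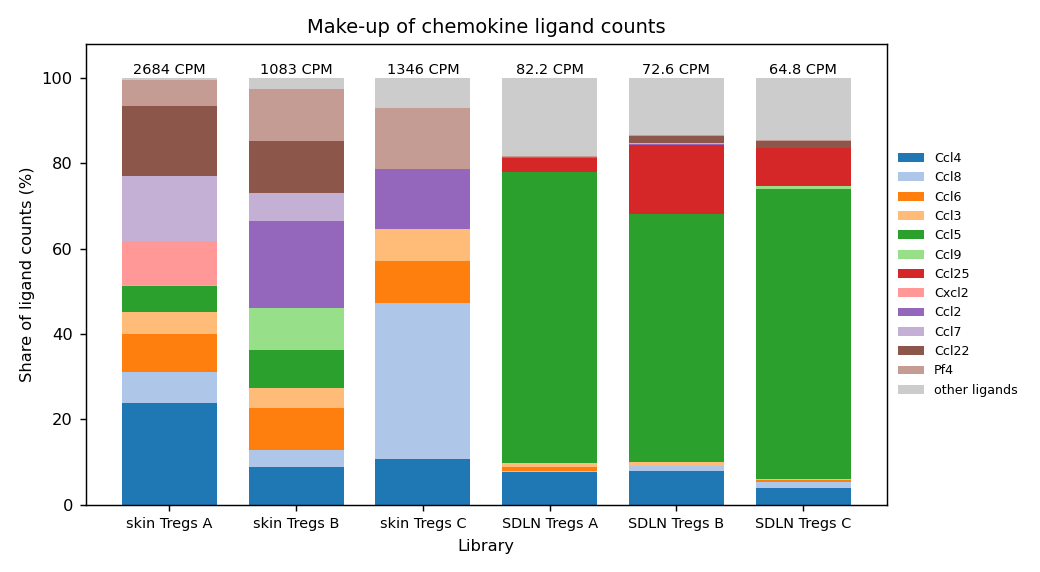
Share of each ligand gene in all chemokine ligand counts of a library (%), as stacked bars with 1 bar per library, and the summed ligand CPM above each bar. Ccl5 takes 58.3 to 68.3% of each SDLN bar, while the skin bars are divided among several genes whose shares differ from library to library.

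The remaining counts in skin came from 7 further ligand genes. Pf4, or platelet factor 4, which is also made by tissue macrophages, was at 168, 132 and 192 CPM across the skin libraries and at 0.129, 0.124 and 0.0847 CPM in SDLN. Its skin libraries were close to one another and all above SDLN. Ccl2 and Ccl7 encode CCR2 ligands that attract monocytes. Ccl2 had 0 counts in skin library A and 223 and 189 CPM in B and C, whereas Ccl7 was at 410.5, 70.2 and 0.443 CPM. Both were at or under 0.310 CPM in every SDLN library.

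Ccl22 and Ccl17 encode the ligands of CCR4 and are typical of dendritic cells. Ccl22 was at 436, 132 and 0 CPM across the skin libraries, and Ccl17 was at 0, 0 and 54.8 CPM. The 2 genes were thus seen in different skin libraries. Ccl12, a further CCR2 ligand, was seen in skin library C at 40.9 CPM, and Ccl24 in skin library B at 27.3 CPM.

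Of the 39 further genes, 19 were over the floor in at least 1 library, 12 of these in SDLN alone, and 17 had 0 counts everywhere. The SDLN-only genes were low. Xcl1, a lymphocyte chemokine that attracts cross-presenting dendritic cells, was at 3.52, 2.56 and 0.529 CPM, and Ccl27a at 3.68, 1.32 and 3.96 CPM. In all, 15 ligand genes were over the floor in some skin library, 5 of them in only 1, 4 in 2 and 6 in all 3 libraries. These are 33.3%, 26.7% and 40.0% of the 15, beside 48.5%, 31.3% and 20.2% of all 8155 genes over the floor in skin.

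The fit across the whole table tested 9 of the 10 ligands and called 4 higher in skin Tregs and 2 higher in SDLN Tregs. Of all 13572 genes tested, 1.04% were called toward skin and 45.3% toward SDLN. The 4 are Ccl3, Ccl4, Ccl6 and Ccl8 and the 2 are Ccl25 and Cxcl10, and the same genes are those whose groups did not overlap, which held for 2.39% of all tested genes toward skin and 53.6% toward SDLN. The choice of the genes used this contrast, so nothing is read from these counts. The median log2 fold change was 5.66 over the 9 ligands and -2.21 over all genes tested. With genes at 0 in a whole tissue placed at the bound that 3 counts per library allow, these medians were 5.66 and -1.34. Of the 5 further ligands tested, 1 (Pf4) was called higher in skin and 2 (Ccl27a and Xcl1) in SDLN.

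Promoters were examined for sequence that the ligands share. The window runs from 250 bases before to 50 after the start in RefSeq (GRCm38.p6), and windows were at hand for Ccl3, Ccl6, Ccl8, Ccl9, Ccl25 (2 starts), Cxcl2 and Cxcl10. An NF-kB-like word, GGGA and CC with any 4 bases between them on either strand, was found in 2 of these 8 windows (Cxcl2 and Cxcl10), and in 20.7% of all 32851 windows. An AP-1-like word, TGANTCA, which reads the same on both strands, was found in 2 (Ccl9 and Cxcl10), and in 7.81% of all windows. Those of Cxcl2, seen in skin library A alone, and Cxcl10, at 0 in skin, are shown 5′ to 3′ on the strand of the gene with these words in capitals. Those of Cxcl2 (chr5:90903649-90903948, plus strand) and Cxcl10 (chr5:92348840-92349139, minus strand) read as follows.
Cxcl2: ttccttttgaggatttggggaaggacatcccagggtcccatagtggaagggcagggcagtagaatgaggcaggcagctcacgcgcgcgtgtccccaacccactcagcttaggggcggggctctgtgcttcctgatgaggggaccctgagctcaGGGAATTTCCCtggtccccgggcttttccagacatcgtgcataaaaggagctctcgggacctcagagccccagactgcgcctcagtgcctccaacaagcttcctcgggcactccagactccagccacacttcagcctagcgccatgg
Cxcl10: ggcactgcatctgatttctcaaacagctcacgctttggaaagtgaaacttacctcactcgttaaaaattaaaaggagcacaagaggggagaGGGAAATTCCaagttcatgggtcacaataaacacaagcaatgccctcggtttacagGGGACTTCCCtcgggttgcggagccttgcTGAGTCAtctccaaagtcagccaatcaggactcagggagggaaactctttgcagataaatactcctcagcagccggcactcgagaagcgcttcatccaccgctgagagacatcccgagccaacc
In Cxcl2 the NF-kB-like word starts 97 bases before the start, and the overlapping match on the other strand begins 1 base later. In Cxcl10 such words start 159 and 103 bases before the start and the AP-1-like word 74 bases before it. A match is a description of the letters and not of a bound site.

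The receptors of these ligands were not used to choose them and were tested. Of 23 chemokine receptor genes, 17 passed the filter on low counts, 1 was called higher in skin Tregs and 6 higher in SDLN Tregs (edgeR quasi-likelihood test, Benjamini-Hochberg adjustment over all 13572 genes). Beside these 5.88% and 35.3% of the receptors stand the 1.04% and 45.3% of all genes given above. The median log2 fold change of the 17 was -0.020, also with the 5 genes at 0 in skin placed at their bound.

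Ccr2, whose product guides monocytes and effector Tregs toward CCL2, CCL7 and CCL12, was the receptor called higher in skin. It was at 549.5, 1194 and 926 CPM across the skin libraries and at 141.7, 235 and 116 CPM across the SDLN libraries. The groups did not overlap, with means of 890 ± 324 and 164 ± 62.8 CPM (SD, n = 3 each), and the log2 fold change was 2.53 (SE 0.613) with an adjusted p of 0.0172 in edgeR. The direction held in all 12 alternatives, while the call held in 6 of them (adjusted p 1.36e-05 to 0.112). It was lost without skin library B (0.0542) or C (0.0599), without SDLN library A (0.0806) or C (0.0719), with no filter on low counts (0.112) and with at least 10 counts in every library (0.0519).

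Ccr1 and Ccr3, which bind CCL3, CCL5, CCL6 and CCL9 between them, and Ccr9, the receptor of CCL25, had 0 counts in all skin libraries. Ccr3 was at 21.8, 27.7 and 15.4 CPM across the SDLN libraries, at least 46.7-fold above the floor in skin (adjusted p 0.00322 in edgeR). That limit ran from 38.2-fold without skin library B to 73.6-fold without skin library A. Ccr1 was at 2.94, 3.48 and 5.08 CPM (adjusted p 0.00379 in edgeR) and Ccr9 at 3.26, 7.995 and 2.45 CPM (0.00651). These calls held in every alternative that tested the genes. Exons of Ccr9 overlap another gene on the opposite strand over 18.8% of their length, which leaves its values uncertain. Of all genes at a mean of 10 to 30 CPM in SDLN, the level of Ccr3, 56.5% were at the floor in every skin library.

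Ccr8, the receptor of CCL8, was at 0.800, 660 and 317 CPM across the skin libraries and at 322.5, 361 and 414 CPM in SDLN and the fitted log2 fold change was -0.020 (SE 1.72, adjusted p 0.998 in edgeR). It was 0.40 without skin library A and -0.89 without skin library B, so its direction rested on single libraries.

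Cxcr6, the receptor of CXCL16, had 0 counts in skin library A and was at 420 and 398 CPM in B and C, and the SDLN libraries were at 154, 172.5 and 151 CPM. Its fold change was 0.98 on the log2 scale (SE 2.12, adjusted p 0.868 in edgeR), and without skin library A it was 1.36 (SE 0.316) with an adjusted p of 0.0232. Without skin library B or C it was 0.65 or 0.34 and was not called. Cxcr3, the receptor of CXCL10, was at 0, 0 and 156 CPM in skin and at 93.1, 79.8 and 79.4 CPM in SDLN, a difference of -0.36 on the log2 scale (SE 2.97, adjusted p 0.974 in edgeR), and of 0.21 without skin library B. Without skin library C, which leaves 0 counts in skin, it was called higher in SDLN (adjusted p 0.00593 in edgeR). Cxcr2, the receptor of CXCL2, had at most 31 counts in any library and was not tested.

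Enzymes that process chemokines were examined too. Adam10, a protease that sheds membrane-bound CXCL16, was at 243, 107.6 and 169 CPM across the skin libraries and at 315, 336 and 220.5 CPM in SDLN and the fitted log2 fold change was -0.80 (SE 0.641, adjusted p 0.457 in edgeR). Adam17, a related protease, and Dpp4, which trims the amino terminus of several chemokines, were at the floor in every skin library. In SDLN their means were 128 ± 23.1 and 94.4 ± 30.3 CPM (SD, n = 3 each). Both were called higher there (adjusted p 0.0161 and 0.00696 in edgeR), as were 45.3% of all genes tested. Neither call held in every alternative. That of Adam17 was lost in 4 of 11 alternatives, among them the 3 fits that left out an SDLN library, and that of Dpp4 in 1 of 11.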

How the data were processed

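The authors trimmed reads with Trimmomatic 0.36, mapped them to GRCm38 with STAR 2.5.2b and counted exon reads per gene with featureCounts of Subread 1.5.2. The deposited table holds unnormalized read counts, 1 row per Ensembl gene. Annotation release, strand setting and duplicate handling are not given in the sources used here, and no molecular identifiers are described, so intervals and floors cover counting error only. GENCODE M21 (GRCm38) named 49056 of the 49315 genes. Groups came from the sample titles, since the tissue label reads skin for all. Its lettered columns could not be matched to the numbered titles.

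CPM are counts-per-million of the library total. Differential expression was tested with edgeR 4.0.16 in R 4.3.3 (glmQLFit with robust estimation, glmQLFTest, filterByExpr, TMM) over all genes, with a threshold of 0.05 on Benjamini-Hochberg adjusted p. SE came from the F statistic. The script was tested on simulated data. Alternatives were DESeq2 1.42.0, its size factors in edgeR, no low-count filter, a minimum of 10 counts in each library, libraries drawn down to the smallest total, and leaving out each library. A block on the column letter, the limits without single libraries and the split of the myeloid list were added after seeing the data. The genes, lists and tests were chosen with earlier results of these data known. The text names the 10 ligands, other ligands at a mean of at least 10 CPM in a tissue, receptors that were called or bind the 10, and the 3 processing enzymes. Some items are not reported here. Ccl24, Xcl1 and Ccl27a were named after their values were seen.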

Additional observations from a re-analysis of the deposited data

How the results depend on the processing

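The columns could not be matched to the numbered titles but share letters between tissues, so the letter was used as a replicate block, chosen after seeing the data. Deviations of same-letter libraries from their tissue means correlated across genes at 0.020, -0.021 and 0.075 for A, B and C, and not every library correlated best with its own letter, so the letter was not taken as a pairing. With this block 61 genes were called toward skin and 5633 toward SDLN, the calls of the 1 and 6 receptor genes held, and Adam17 and Dpp4 were not called (adjusted p 0.0793 and 0.0874 in edgeR). The log2 fold changes of Ccl5 and Cxcl16 were -0.41 and -3.08 under the block, and among receptors that were not called the sign also turned for Ccr6 (-0.94), Cxcr4 (-1.34), Cxcr6 (-0.038) and Cx3cr1 (-4.13), while Ccr8 was at -1.18. The fit called 141 genes toward skin. DESeq2 gave 404, dropping the low-count filter 77, a minimum of 10 counts in each library 81 and drawing all libraries down to the smallest total 93. Leaving out 1 library gave 71 to 324, namely 71, 77 and 81 when the library dropped was SDLN A, B or C and 324 when it was skin A. Toward SDLN the 6142 calls became 9 under the 10-count minimum, which leaves 1396 genes to test, 3193 after drawing down, and 4983 to 7787 on leaving out 1 library. The 1 receptor gene called higher in skin became 0 with no filter and 0 under the 10-count minimum, with 1 at an unadjusted p under 0.05 in each and 1 call with DESeq2, and 0 to 2 when 1 library was left out. The 6 receptor genes called higher in SDLN became 0 under the 10-count minimum, where only Ccr2 remained to be tested (0 at an unadjusted p under 0.05, and 6 calls with DESeq2), and 3 after drawing down, with 6 to 7 when 1 library was left out. Ligand genes over 3 counts in some SDLN library fell from 27 to 15 after drawing down, while in skin there were 15 before and after. They numbered 13 to 14 in skin and 24 in SDLN without 1 library. Among the ligands, the log2 fold change of Ccl5 was -0.062 without skin library A and lay between -0.062 and 1.06 when 1 library was dropped. That of Cxcl16 was -0.017 with no filter, -0.62 after drawing down and -5.47 without skin library A, and ran from -5.47 to 0.66 without 1 library. Ccl3, Ccl4, Ccl6, Ccl8 and Ccl9 stayed above 0 in each alternative that could be fitted, but their size moved. After drawing down, Ccl3 was at 6.16 and Ccl6 at 12.16, and with 1 library left out Ccl3 ran from 6.94 to 8.01, Ccl4 from 4.64 to 6.02, Ccl6 from 8.05 to 9.53, Ccl8 from 7.02 to 9.16 and Ccl9 from 2.98 to 13.60. Fitted fold changes of Ccl25 and Cxcl10, at 0 in skin, moved with the tool and are not given. The cause of these shifts was not tested.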

Other observations

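Some receptors outside the pairs described above were held by different skin libraries. Ccr7, which guides T cells to lymph nodes, was at 229, 204.5 and 0.111 CPM across the skin libraries and at 232, 210 and 230 CPM across the SDLN libraries (a difference of -0.85 on the log2 scale, SE 1.83, adjusted p 0.866 in edgeR). Ccr6 had 0 counts in skin library A and 118 and 170 CPM in B and C, and the SDLN libraries were at 65.3, 119.8 and 85.8 CPM (0.32 on the log2 scale, SE 2.17, adjusted p 0.967 in edgeR, and -0.68 without skin library C). Ccr10 and Ccrl2 were highest in skin library A, at 285 and 425.5 CPM, and had 0 counts in skin library C and B respectively. Cx3cr1, a receptor of monocytes and macrophages, was seen in skin library B alone among the skin libraries, at 159 CPM, against 1.37, 5.41 and 1.06 CPM in SDLN.

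Ccr4, the receptor of CCL17 and CCL22, had 0 counts in all skin libraries and 66.1, 93.1 and 31.7 CPM across the SDLN libraries (adjusted p 0.00885 in edgeR), although Ccl22 itself was at 436 and 132 CPM in skin libraries A and B. Cxcr5 was at the floor in every skin library and at 35.7 ± 9.24 CPM in SDLN (SD, n = 3, adjusted p 0.00507 in edgeR), and Xcr1 was at 0 in skin and at 2.45 ± 1.38 CPM in SDLN (adjusted p 0.0117 in edgeR). Of all 3649 genes at a mean of 30 to 100 CPM in SDLN, the level of Ccr4 and Cxcr5, 28.7% were at the floor in every skin library.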
